A study of Mus musculus with 18 samples.

Results

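The genes described here are 9 inhibitory or co-inhibitory receptor genes of T cells: *Ctla4*, *Btla*, *Cd200*, *Cd200r1*, *Lair1*, *Cd101*, *Cd96*, *Vsir* and *Tnfrsf14*. They were chosen by name from what their proteins are known to do, at a time when earlier results of these data were known. Each symbol was matched to its Ensembl identifier in the deposited gene tables. They are 9 of the 45706 genes in each table. All 9 were among the 12255 genes that passed the filter on low counts and were tested.

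RNA-seq was performed on 18 libraries of CD8+ T cells of OT-I mice, whose transgenic T cell receptor recognizes the OVA(257-264) peptide of ovalbumin. Repeat peptide stimulated cells, the *in vitro* model of exhaustion, received 10 ng/ml peptide daily for 5 days and, by the methods of the study, stayed with peptide until day 8. Single peptide stimulated cells met the peptide once, for 48 hours, and were then rested. From day 5 both kinds of cells were treated for 3 days with 1 µM ibrutinib, an irreversible inhibitor of the kinase BTK, or with its solvent DMSO, and they were harvested on day 8. Of repeat peptide stimulated cells, 4 libraries had DMSO and 5 had ibrutinib, and of single peptide stimulated cells, 5 had DMSO and 4 had ibrutinib. All cells were cultured with IL-7 and IL-15 and came from spleens by negative selection of CD8+ T cells, and all carry the same receptor, so that they model 1 antigen specificity in culture. Cultures that share the text of the genotype entry are treated as 1 experiment, lettered A to F here. Nothing in the labels says that cultures came from separate animals, and p-values then measure the spread between these cultures. Each of A to D is present in all 4 groups, whereas E has just a repeat peptide library with ibrutinib and F just a single peptide library with DMSO.

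The strain entry reads OT-1 mice WT for all 18 libraries, whereas the genotype entry of experiments B to E names a btk KO. The study also worked with such mice, and whether these cells lacked *Btk* cannot be told from the labels. Every group holds libraries of experiments B, C and D, but the entry is not fully balanced. Experiment E, which also has it, is only in repeat peptide with ibrutinib, and F, which does not, only in single peptide with DMSO. The counts of *Btk* were too low to check the entry: its expected count was 8 to 27 in the repeat peptide libraries with DMSO, 0 to 11 with ibrutinib, 0 in all 5 single peptide libraries with DMSO and 0 to 2 with ibrutinib. The total expected count was 23445922 to 51995372 per library. CD8 T cell markers (4 of the 5 chosen were matched) summed to at least 1740 TPM (transcript abundance scaled for length and depth) in every library. Markers of B cells (6 genes) summed to at most 8.01 TPM, of macrophages and monocytes (7 genes) to at most 8.87 TPM and of dendritic cells (6 genes) to at most 4.33 TPM. *Csf1r*, *Clec9a* and *Cd4*, which define macrophages, cross-presenting dendritic cells and CD4 T cells, had at most 3 expected counts in any library. *Cd14* had 32 to 112 expected counts with repeat peptide and DMSO and 6 to 48 with ibrutinib. Single peptide libraries had 0 to 1. *Cd68* had 26 to 101 and 54 to 206 with repeat peptide, against 18 to 54 and 8 to 30 with single peptide. *Zbtb46* had 26 to 145 and 18 to 106, against 3 to 23 and 3 to 12. *Lyz2* had at most 54 with repeat and 113 with single peptide, and *Itgax* at most 291 and 122. Markers of NK cells (3 genes) summed to 2.74 to 25.6 TPM in repeat and 0.59 to 2.73 TPM in single peptide stimulated cells, most of it from *Klrb1c*, and the defining gene *Ncr1* was at most 1.16 TPM. The CD4 T cell list (4 genes) summed to 5.38 to 21.4 TPM in repeat and 2.08 to 12.5 TPM in single peptide stimulated cells, in the former mostly from *Zbtb7b*. *Foxp3* of the same list went the other way, with 0 to 7 expected counts in repeat peptide libraries with DMSO and 7 to 67 with ibrutinib, against 53 to 453 and 69 to 775 in single peptide libraries. The part of these genes in the differences described here was not tested. In bulk RNA, fewer cells that express a gene and less RNA per cell cannot be told apart.

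Inhibitory receptors sit on the T cell surface and restrain activation when they meet a ligand on a neighbouring cell. Some, such as BTLA and LAIR1, carry cytoplasmic tyrosine motifs that recruit the phosphatases SHP-1 (*Ptpn6*) and SHP-2 (*Ptpn11*), CTLA-4 competes with CD28 for shared ligands, and CD200R1 signals through the adaptors Dok1 and Dok2. T cells that meet antigen persistently express several of them together, and antibodies that block such receptors are used to restore T cell responses.

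Some of the members fall into pairs by binding. CD200 is the ligand of CD200R1, and HVEM, the product of *Tnfrsf14*, is a ligand of BTLA. *Btla*, *Cd200*, *Cd200r1* and *Cd96* lie within 1355 kb of chromosome 16 (GRCm38, 44765736 to 46120251). *Ctla4* is on chromosome 1, *Cd101* on chromosome 3, *Tnfrsf14* on chromosome 4, *Lair1* on chromosome 7 and *Vsir* on chromosome 10. No exon of a member overlapped an exon of another gene in the annotation.

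Bases upstream of a start site are shown for 5 members: *Ctla4*, *Cd200* and *Cd96*, which were higher after repeat peptide, and *Vsir* and *Tnfrsf14*, which were lower. They come from RefSeq's windows on GRCm38.p6, leave out every annotated exon, run 5′ to 3′ on the gene's strand, and have matches to the searched motifs in capitals. For *Tnfrsf14* only the 125 bases furthest from the start are shown, since an annotated exon lies nearer to it. The regions are chr1:60908775-60909024 (plus strand) for *Ctla4*, chr16:45409054-45409303 (minus) for *Cd200*, chr16:46120252-46120498 (minus) for *Cd96*, chr10:60346601-60346850 (plus) for *Vsir* and chr4:154928203-154928327 (minus) for *Tnfrsf14*.
Ctla4: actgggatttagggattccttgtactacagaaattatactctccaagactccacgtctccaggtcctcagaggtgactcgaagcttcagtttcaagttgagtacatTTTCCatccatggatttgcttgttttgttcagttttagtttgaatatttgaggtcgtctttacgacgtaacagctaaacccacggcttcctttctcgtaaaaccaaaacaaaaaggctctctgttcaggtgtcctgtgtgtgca
Cd200: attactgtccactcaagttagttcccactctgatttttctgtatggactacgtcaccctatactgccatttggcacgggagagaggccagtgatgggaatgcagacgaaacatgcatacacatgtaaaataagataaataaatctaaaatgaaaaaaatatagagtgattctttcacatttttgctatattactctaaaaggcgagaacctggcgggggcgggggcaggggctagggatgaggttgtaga
Cd96: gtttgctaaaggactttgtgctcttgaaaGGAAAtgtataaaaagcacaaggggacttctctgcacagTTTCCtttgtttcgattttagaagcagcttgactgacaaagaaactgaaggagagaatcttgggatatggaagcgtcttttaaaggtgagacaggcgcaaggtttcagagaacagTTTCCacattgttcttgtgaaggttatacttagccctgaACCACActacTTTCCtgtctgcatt
Vsir: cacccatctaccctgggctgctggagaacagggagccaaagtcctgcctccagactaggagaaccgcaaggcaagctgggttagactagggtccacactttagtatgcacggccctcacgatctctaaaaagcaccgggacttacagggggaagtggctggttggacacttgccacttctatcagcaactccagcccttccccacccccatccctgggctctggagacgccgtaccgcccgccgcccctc
Tnfrsf14: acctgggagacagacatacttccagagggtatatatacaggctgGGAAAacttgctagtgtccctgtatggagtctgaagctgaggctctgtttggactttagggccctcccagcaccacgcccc

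The motifs were GGAAA (the core of NFAT sites), TGANTCA (AP-1) and TGTGGT (the core of Runx sites), searched on both strands. No match overlapped another in the bases printed. The whole windows, 250 bases before to 50 after the start, were held for 8 of the 9 members and not for *Cd200r1*. GGAAA was in 5 of these 8 windows (*Ctla4*, *Lair1*, *Cd101*, *Cd96* and *Tnfrsf14*), and 61.3% of all 32851 windows of that length hold it. *Cd96* had 5 such matches, more than the 0 to 2 of the other members. TGTGGT was in 3 windows (*Btla*, *Cd101* and *Cd96*), against 16.8% of all windows, and TGANTCA in 0, against 7.81%. *Cd200* and *Vsir* held none of these motifs. The matches are a description of these letters only.

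The levels of the 9 genes can be ordered per transcript length by TPM. In repeat peptide stimulated cells with DMSO (n = 4), *Ctla4* was at 146.6 ± 29.7 TPM (mean ± SD) and *Cd96* at 136.9 ± 22.4 TPM. They were followed by *Cd200* at 72.0 ± 19.3, *Vsir* at 40.1 ± 7.41, *Btla* at 23.3 ± 5.17 and *Tnfrsf14* at 19.8 ± 6.84 TPM. *Cd101* at 10.1 ± 1.73, *Cd200r1* at 4.402 ± 0.801 and *Lair1* at 1.32 ± 0.649 TPM were the lowest. The neighbours *Ctla4* and *Cd96*, and *Btla* and *Tnfrsf14*, were closer than their SDs. In single peptide stimulated cells with DMSO (n = 5) the order was another: *Cd96* 92.4 ± 14.0, *Vsir* 80.1 ± 14.1, *Ctla4* 61.7 ± 20.5, *Tnfrsf14* 48.5 ± 10.6 and *Btla* 35.9 ± 13.6 TPM. The remaining 4 genes were at 7.60 ± 0.553 (*Lair1*), 5.92 ± 4.51 (*Cd200*), 1.71 ± 0.715 (*Cd101*) and 0.302 ± 0.209 TPM (*Cd200r1*). Within each of the neighbouring pairs *Cd96* and *Vsir*, *Vsir* and *Ctla4*, *Ctla4* and *Tnfrsf14*, *Tnfrsf14* and *Btla*, *Lair1* and *Cd200*, and *Cd200* and *Cd101*, the means differed by less than the larger SD. All further values are normalized counts of a gene across libraries, that is expected counts scaled to the same effective library size, unless TPM is named. The place of *Cd200* in the TPM order depends on its estimated transcript length, which varied between libraries as given below. Not scaled for length, its mean normalized count with repeat peptide and DMSO was 970, below *Vsir* (3697) and *Btla* (1635).

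**Figure D1:**
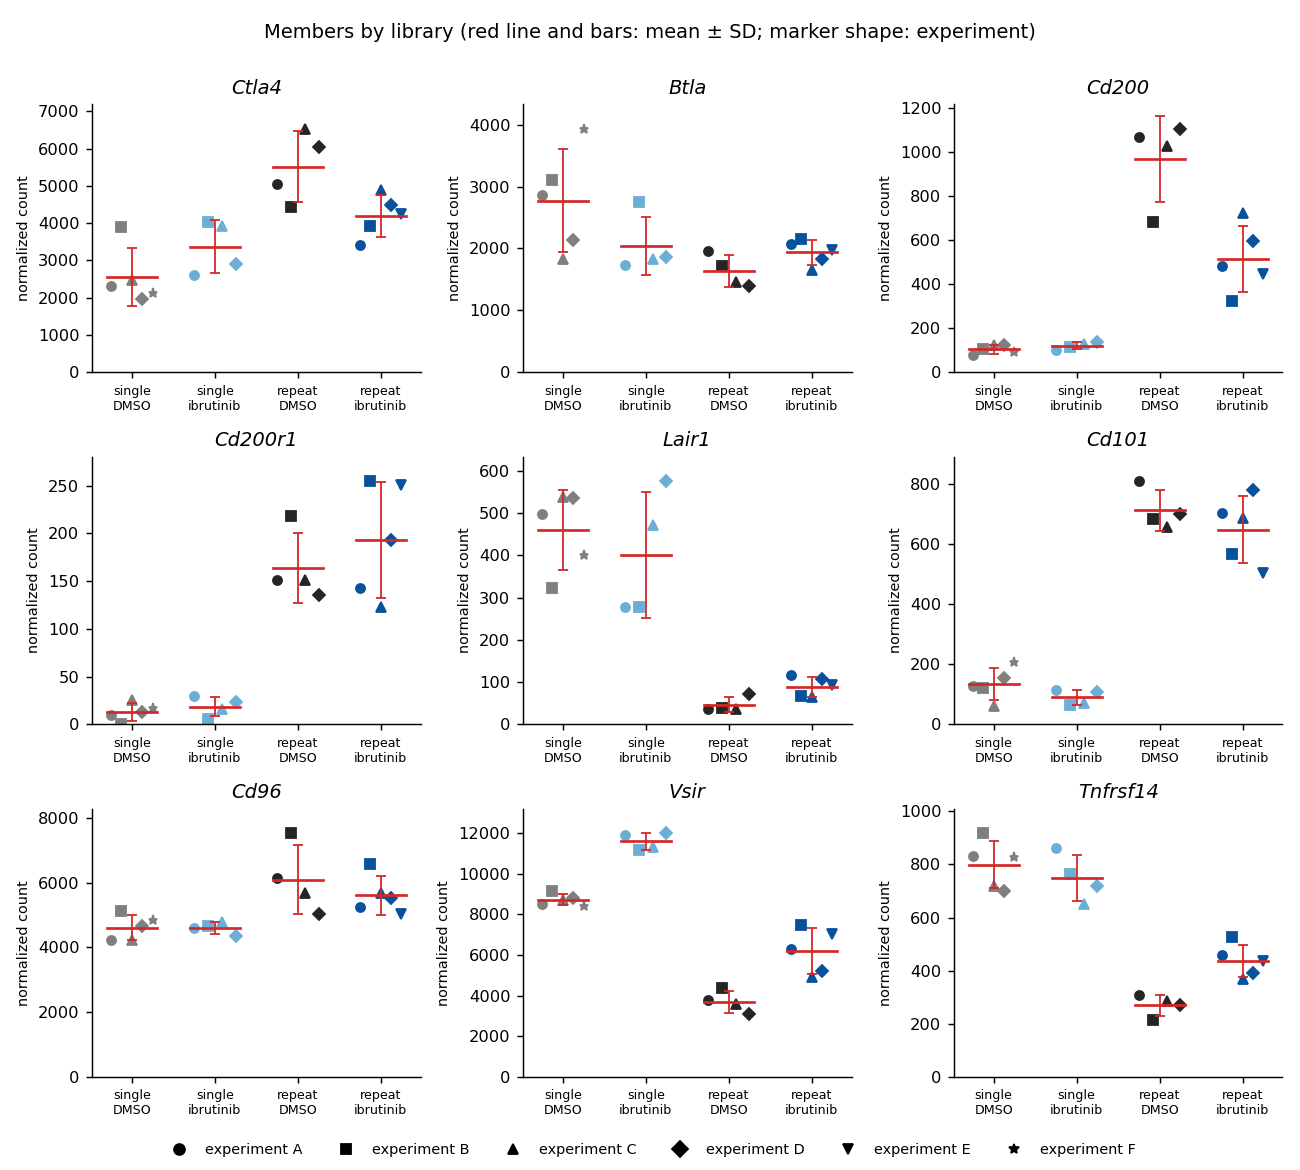
Normalized count (y axis, from 0, scaled for each gene) of the 9 members in the 18 libraries by group (x axis); points are libraries with a marker shape for each experiment, and red lines and bars are the mean ± SD of a group. *Cd200*, *Cd200r1* and *Cd101* are near the bottom of their scale in single peptide stimulated cells and high in repeat peptide stimulated cells, *Lair1* is the opposite, and with ibrutinib *Vsir* and *Tnfrsf14* of repeat peptide stimulated cells lie above all DMSO libraries of those cells.

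The comparison of repeat with single peptide stimulated cells, both with DMSO, asks how the 9 genes differ between the exhaustion model and rested cells. All 9 were called, of which 5 were higher and 4 lower with repeat peptide. A gene was called when edgeR's quasi-likelihood test gave an adjusted p-value under 0.05, its normalized count averaged 50 or more, and its log2 fold change exceeded 0.2 in size. *Cd200r1*, *Cd200* and *Cd101* rose most (12.7, 9.32 and 5.29-fold), *Ctla4* and *Cd96* less (2.16 and 1.32-fold). *Lair1* was 9.97-fold lower, *Tnfrsf14* 2.97-fold, *Vsir* 2.36-fold and *Btla* 1.70-fold. In this comparison 47% of all tested genes were called, 22.8% higher and 24.2% lower, so that a call by itself says little of a gene. The normalized counts of both groups did not overlap for 7 of the 9 members, against 41.4% of all tested genes. The median log2 fold change was 0.40 over the members, which is the value of *Cd96*, and -0.0022 over all tested genes.

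Among the ligands, *Cd200* encodes a membrane glycoprotein that engages CD200R1. Its normalized count with repeat peptide and DMSO was 1067, 680.2, 1026 and 1106 in experiments A to D. With single peptide and DMSO it was 78.7, 104, 124, 122 and 90.7 in experiments A, B, C, D and F. Every repeat peptide library was above every single peptide library, and B was the lowest of the repeat peptide libraries. The log2 fold change was 3.22 ± 0.217 (SE; adjusted p = 2.13e-09), and it was 2.70 to 3.74 within experiments A to D. *Tnfrsf14*, or HVEM, is a TNF receptor superfamily member that also acts as ligand of BTLA. It was at 308, 213, 284 and 270.0 in repeat peptide libraries A to D and at 833, 917, 720.1, 699.8 and 828 in single peptide libraries A, B, C, D and F. The groups were far apart, with a log2 fold change of -1.57 ± 0.139 (adjusted p = 5.63e-08).

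Among the receptors of those ligands, *Cd200r1* was at 151, 218, 151 and 136 in repeat peptide libraries A to D. In single peptide libraries A, B, C, D and F it was at 10.3, 0, 25.5, 13.0 and 16.6. It was thus a gene of low counts in single peptide stimulated cells and at 0 in library B. Its log2 fold change was 3.66 ± 0.527 (adjusted p = 1.58e-05). Reads of *Cd200r1* and of its close relatives could be split among them by the authors' counting, which makes its level uncertain. The relative *Cd200r4* went the other way (log2 fold change -1.025 ± 0.363, adjusted p = 0.0234), and the call was lost when repeat peptide library A, C or D or single peptide library F with DMSO was left out (adjusted p 0.0567 to 0.075). *Btla*, the receptor for HVEM, was at 1965, 1717, 1457 and 1400 in repeat peptide libraries A to D and at 2865, 3112, 1828, 2130 and 3936 in single peptide libraries A, B, C, D and F. Library C of the single peptide cells was below library A of the repeat peptide cells, so that the groups overlapped. In each of experiments A to D, however, *Btla* was lower with repeat peptide, by -0.33 to -0.86 on the log2 scale, and the fitted log2 fold change was -0.76 ± 0.191 (adjusted p = 0.00253). It lost the call in the limma test on TPM (-0.535, adjusted p = 0.12).

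*Ctla4*, the inhibitory receptor that shares CD80 and CD86 with CD28, was at 5053, 4439, 6536 and 6055 in repeat peptide libraries A to D. In single peptide libraries A, B, C, D and F it was at 2312, 3893, 2467, 1954 and 2132. Library B of the single peptide cells stood well above the others of its group, yet the groups did not overlap. The log2 fold change was 1.11 ± 0.185 (adjusted p = 6.74e-05), but only 0.19 within experiment B against 1.13 to 1.63 in A, C and D. *Cd96*, a receptor for CD155 (*Pvr*), changed least. It was at 6166, 7535, 5681 and 5029 in the repeat peptide libraries and at 4222, 5123, 4230, 4653 and 4839 in the single peptide libraries, in the same order of experiments. Library D of the repeat peptide cells was below library B of the single peptide cells, and the log2 fold change was 0.40 ± 0.107 (adjusted p = 0.00379).

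*Cd101*, an immunoglobulin superfamily protein that marks a late stage of exhausted CD8 T cells *in vivo*, was at 808, 682, 655 and 698 in the repeat peptide libraries. It was at 128, 121, 62.45, 154 and 206 in the single peptide libraries. No library of either group came near the other group (log2 fold change 2.40 ± 0.245, adjusted p = 3.15e-07). *Lair1*, a collagen receptor, was at 36.1, 38.5, 37.4 and 72.6 in the repeat peptide libraries and at 498, 323, 539, 536 and 401 in the single peptide libraries. Library D of the repeat peptide cells was above the others of its group and still far below every single peptide library (log2 fold change -3.32 ± 0.303, adjusted p = 8.23e-08). *Vsir* encodes VISTA, a B7 family protein of resting T cells and myeloid cells. It was at 3756, 4390, 3562 and 3079 against 8535, 9152, 8718, 8809 and 8430 in the same order of experiments, with a wide gap between the groups (log2 fold change -1.24 ± 0.121, adjusted p = 1.9e-07). Direction and call of all 9 members were the same whichever of the 18 libraries was left out.

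**Figure D2:**
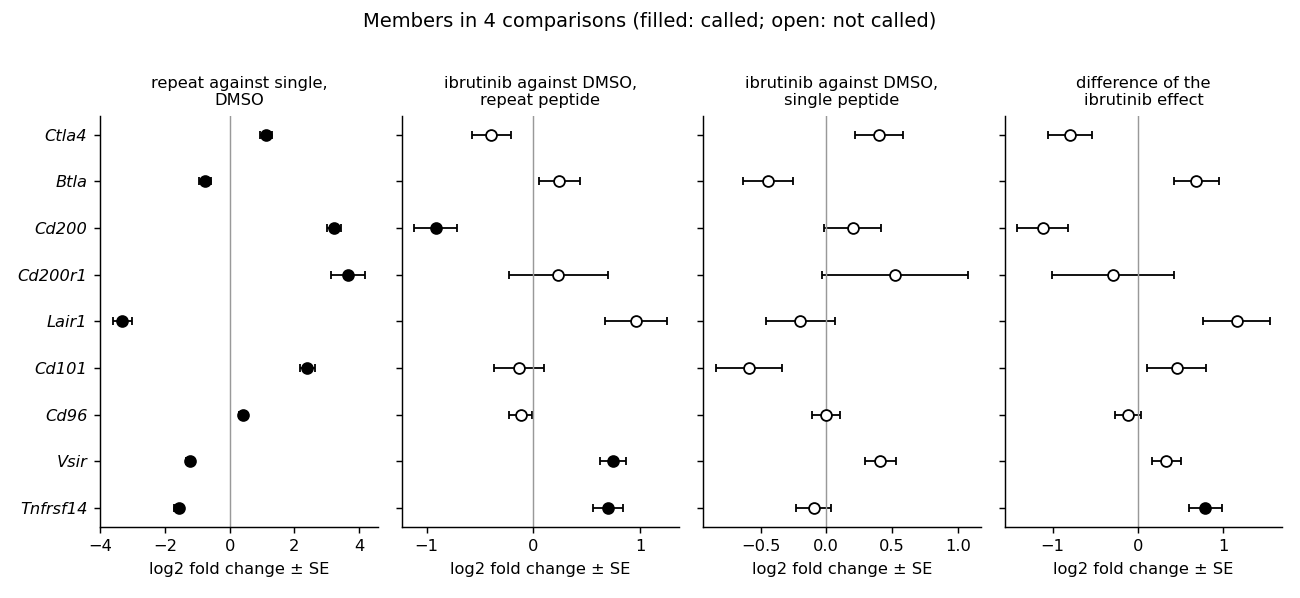
Log2 fold change ± SE (x axis, a scale of its own in each panel) of the 9 members in 4 comparisons; filled points were called and open points were not. All 9 points are filled for repeat against single peptide, 3 for ibrutinib in repeat peptide stimulated cells (*Cd200*, *Vsir* and *Tnfrsf14*), 0 for ibrutinib in single peptide stimulated cells and 1 for the difference of both ibrutinib effects (*Tnfrsf14*).

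The comparison of ibrutinib with DMSO in repeat peptide stimulated cells asks which of these receptors respond to the drug in the exhaustion model. *Vsir* and *Tnfrsf14* rose 1.68 and 1.62-fold and *Cd200* fell 1.89-fold, while *Ctla4*, *Btla*, *Cd200r1*, *Lair1*, *Cd101* and *Cd96* were not called. Thus 3 of 9 members were called, 2 higher and 1 lower, against 5.92% of all tested genes (4.01% higher and 1.92% lower). The normalized counts did not overlap for 2 members, *Vsir* and *Tnfrsf14*, against 10.1% of all tested genes. With the experiment as a block 4 members were called, *Lair1* being the fourth, against 13.8% of all tested genes. The median log2 fold change was 0.23 over the members and 0.0045 over all tested genes. The former is the value of *Cd200r1*, which was not called, and the members moved in both directions. The DMSO libraries of this comparison are those of the comparison above, so that a library that was high or low there moves both results.

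*Vsir* with ibrutinib was at 6315, 7498, 4898, 5211 and 7055 in experiments A to E. Its lowest ibrutinib library was above the highest DMSO library (4390), and every ibrutinib library stayed below the single peptide libraries. The log2 fold change was 0.74 ± 0.12 (adjusted p = 0.00094), with 0.75, 0.77, 0.46 and 0.76 within experiments A, B, C and D. *Tnfrsf14* with ibrutinib was at 458.5, 527, 368, 392.5 and 436 in experiments A to E, again all above the highest DMSO library (308). The log2 fold change was 0.70 ± 0.137 (adjusted p = 0.00439), and within experiment B it was 1.3 against 0.37 to 0.57 in A, C and D. Both kept the call whichever of the 18 libraries was left out, and both lost it in the limma test on TPM (*Vsir* 0.635, adjusted p = 0.0642; *Tnfrsf14* 0.57, adjusted p = 0.272).

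*Cd200* with ibrutinib was at 484, 322, 722, 594 and 447.5 in experiments A to E. The groups overlapped, since ibrutinib library C was above DMSO library B, but in each of experiments A to D the ibrutinib library was the lower one, by -0.51 to -1.14 on the log2 scale. The log2 fold change was -0.91 ± 0.202 (adjusted p = 0.00974), and the call held in each fit that left out a library (highest adjusted p = 0.0454). This result depended on the transcript length. With an offset for the deposited effective length the log2 fold change was -0.22 (adjusted p = 0.833), and on TPM it was -0.37 (limma, adjusted p = 0.718). On normalized counts, *Cd200* with repeat peptide and ibrutinib (322 to 722) remained far above every single peptide library (78.7 to 137). In TPM, repeat peptide library B with ibrutinib (34.7) was below single peptide library B with ibrutinib (35.5). The mean TPM of these groups was 56.4 and 18.7. Under ibrutinib, the log2 fold change of *Cd200* for repeat over single peptide was 2.10 on counts. It was 1.553 with the length offset (adjusted p = 0.0166).

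*Lair1* was higher and *Ctla4* was lower with ibrutinib in each of experiments A to D, without passing the test. *Lair1* with ibrutinib was at 116, 66.0, 63.8, 106.5 and 94.0 in experiments A to E, above the DMSO library of the same experiment in A, B, C and D. Its log2 fold change was 0.96 ± 0.289 (adjusted p = 0.0543), and 0.95 with the experiment as a block (adjusted p = 0.0139). DESeq2 also called it (0.96, adjusted p = 0.0146). Leaving out repeat peptide library D with DMSO, B or C with ibrutinib, single peptide library B with DMSO or A or D with ibrutinib brought the adjusted p to 0.0216 to 0.0498, and the length offset gave 0.51 (adjusted p = 0.412). *Ctla4* with ibrutinib was at 3411, 3935, 4899, 4493 and 4255 in experiments A to E. It was below the DMSO library in 4 of 4 experiments, by -0.17 to -0.57, and ibrutinib library C was above DMSO library B. The log2 fold change was -0.39 ± 0.184 (unadjusted p = 0.0457 and adjusted p = 0.22 in edgeR's test), which failed the correction.

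The other members showed smaller differences. *Btla* with ibrutinib was at 2065, 2160, 1645, 1835 and 1970 in experiments A to E, above DMSO in 4 of 4 experiments by 0.07 to 0.39 (log2 fold change 0.24 ± 0.189, adjusted p = 0.482). *Cd96* was at 5255, 6578, 5693, 5528 and 5022, below DMSO in 2 of 4 experiments (-0.12 ± 0.107, adjusted p = 0.551). *Cd101* was at 702, 565, 686, 778 and 503 (-0.13 ± 0.234, adjusted p = 0.787). *Cd200r1* was at 143, 255, 123, 193 and 251 (0.23 ± 0.46, adjusted p = 0.813), with a standard error that leaves room for a change of either sign. For these 4 genes the libraries of both groups were intermixed.

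**Figure D3:**
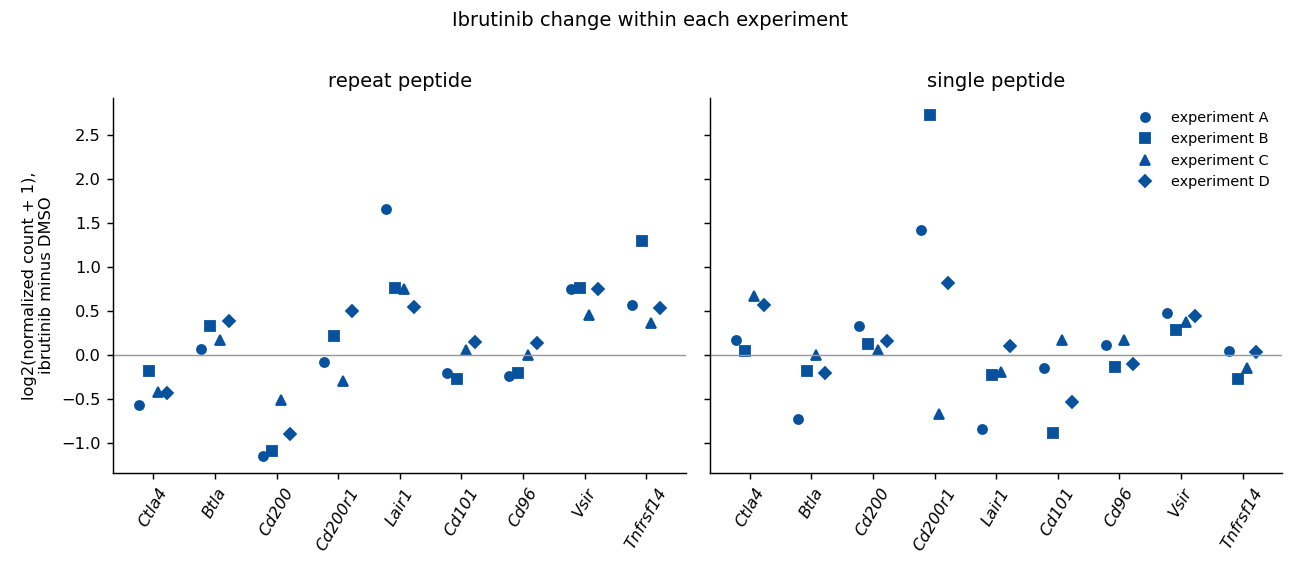
Ibrutinib minus DMSO on the log2(normalized count + 1) scale (y axis) within experiments A to D for each member (x axis), in repeat peptide (left) and single peptide stimulated cells (right). In the left panel all 4 points of *Cd200* and *Ctla4* are below 0 and all 4 of *Btla*, *Lair1*, *Vsir* and *Tnfrsf14* are above it, and in the right panel all 4 points of *Ctla4*, *Cd200* and *Vsir* are above 0; *Cd200r1* scatters from -0.66 to 2.73 there on low counts.

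In single peptide stimulated cells, 0 of the 9 members were called between ibrutinib and DMSO by edgeR, against 3.04% of all tested genes. *Ctla4*, *Btla*, *Cd101* and *Vsir* had an unadjusted p-value under 0.05 in edgeR's test. The share of all tested genes at that threshold is not given here. DESeq2's Wald test called 1 and so did blocking on the experiment, in both cases *Vsir* (0.39, adjusted p = 0.0378, and 0.40, adjusted p = 0.017). Over all genes DESeq2's test called 602, and the block called 9.09% of all tested genes. The median log2 fold change was -0.01 over the members and 0.01 over all tested genes.

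*Vsir* with single peptide and ibrutinib was at 11900, 11193, 11309 and 11996 in experiments A to D, and every one of these libraries was above every single peptide DMSO library. Its log2 fold change was 0.41 ± 0.117 (adjusted p = 0.0665), and leaving out repeat peptide library C with ibrutinib gave an adjusted p of 0.0461. *Ctla4* was at 2605, 4030, 3936 and 2913, higher than DMSO in 4 of 4 experiments (0.40 ± 0.185, adjusted p = 0.34). Without single peptide library B with DMSO, the high one, the log2 fold change of *Ctla4* was 0.59 and it was called (adjusted p = 0.0461). *Btla* was at 1730, 2747, 1833 and 1857, with library B above the others (-0.44 ± 0.189, adjusted p = 0.292). *Cd101* was at 116, 65.6, 70.5 and 106 (-0.59 ± 0.253, adjusted p = 0.296).

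For the 5 remaining members no difference passed the unadjusted threshold. *Cd200* was at 99.55, 113, 129 and 137 in experiments A to D, a little above DMSO in each (0.20 ± 0.216, adjusted p = 0.784). With the length offset the log2 fold change of *Cd200* was 1.667 (adjusted p = 0.0841), and its mean TPM was 5.92 with DMSO and 18.7 with ibrutinib. *Tnfrsf14* was at 862, 763, 652 and 720.0 (-0.09 ± 0.133, adjusted p = 0.851) and *Lair1* at 279, 277, 472 and 576 (-0.20 ± 0.261, adjusted p = 0.837). *Cd200r1*, at 29.4, 5.62, 15.8 and 23.6, stayed in the range of low counts (0.53 ± 0.555, adjusted p = 0.78). *Cd96* was at 4596, 4664, 4780 and 4349, within the range of the DMSO libraries (-0.01 ± 0.107, adjusted p = 0.994).

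The difference between the ibrutinib effects of repeat peptide and single peptide stimulated cells was tested as such. *Tnfrsf14* was called, with an effect higher by 0.79 ± 0.19 on the log2 scale in repeat peptide stimulated cells (adjusted p = 0.0458). Thus 1 of 9 members was called, against 1.26% of all tested genes. This call was near the threshold: in 12 of the 18 fits that left out a library the adjusted p was 0.0579 to 0.101, namely without B, C or D of repeat peptide with DMSO, A, B or E of repeat peptide with ibrutinib, A, B or F of single peptide with DMSO, or B, C or D of single peptide with ibrutinib. It was also lost with the length offset (0.60, adjusted p = 0.417). With the experiment as a block, 3 members were called, *Tnfrsf14*, *Cd200* and *Lair1*, against 5.54% of all tested genes. *Cd200* differed by -1.12 ± 0.295 without the block (adjusted p = 0.0749) and -1.06 with it (adjusted p = 0.0136), and it was called without repeat peptide library B with DMSO or C with ibrutinib (adjusted p 0.0274 to 0.0363). With the length offset the difference of *Cd200* was -1.885 (adjusted p = 0.24). *Lair1* differed by 1.16 ± 0.389 (adjusted p = 0.189) by 1.22 with the block (adjusted p = 0.0297) and by 0.545 with the length offset (adjusted p = 0.774). *Ctla4*, lower with ibrutinib in repeat and higher in single peptide stimulated cells in 4 of 4 experiments each, differed by -0.80 ± 0.261 (adjusted p = 0.171). Without single peptide library B with DMSO the difference of *Ctla4* was -0.98 and was called (adjusted p = 0.032). *Btla*, *Cd101*, *Cd96*, *Cd200r1* and *Vsir* were not called, with adjusted p-values of 0.285 to 0.945.

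Repeat peptide stimulated cells were also compared with single peptide stimulated cells under ibrutinib. Here 7 of the 9 members were called, 4 higher and 3 lower, against 38.4% of all tested genes (18.7% higher and 19.6% lower). *Cd200r1* (log2 fold change 3.37 ± 0.539), *Cd101* (2.86 ± 0.265), *Cd200* (2.10 ± 0.22) and *Cd96* (0.29 ± 0.107) were higher in repeat peptide stimulated cells. *Lair1* (-2.16 ± 0.27), *Vsir* (-0.905 ± 0.117) and *Tnfrsf14* (-0.78 ± 0.133) were lower. *Ctla4* (0.32 ± 0.186, adjusted p = 0.179) and *Btla* (-0.08 ± 0.188, adjusted p = 0.765) did not pass the test under the drug. The call of *Cd96* (adjusted p = 0.0368) was lost in 6 of 18 fits, without B, C or D of repeat peptide or A, B or D of single peptide with ibrutinib (adjusted p 0.056 to 0.0737).

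Repeat peptide stimulated cells with ibrutinib were finally set against single peptide stimulated cells with DMSO, a comparison that shares libraries with those above. All 9 members were called, 5 higher and 4 lower, against 32.9% of all tested genes (16.7% higher and 16.2% lower). For *Ctla4* the log2 difference from single peptide DMSO cells was 1.11 ± 0.185 with DMSO and 0.72 ± 0.176 with ibrutinib. For *Cd200* these values were 3.22 ± 0.217 and 2.31 ± 0.206 on counts, but 3.438 and 3.219 with the length offset. For *Cd101* they were 2.40 ± 0.245 and 2.27 ± 0.237. For *Vsir* they were -1.24 ± 0.121 and -0.49 ± 0.111, for *Tnfrsf14* -1.57 ± 0.139 and -0.875 ± 0.126, and for *Lair1* -3.32 ± 0.303 and -2.36 ± 0.263. *Btla* was at -0.76 ± 0.191 and -0.52 ± 0.178, *Cd96* at 0.40 ± 0.107 and 0.28 ± 0.101, and *Cd200r1* at 3.66 ± 0.527 and 3.895 ± 0.517. The calls with ibrutinib of *Btla* (adjusted p = 0.0277) and *Cd96* (adjusted p = 0.0338) were each lost in 5 of 18 fits. These left out C or D of repeat peptide with ibrutinib or A, B or F of single peptide with DMSO for *Btla* (adjusted p 0.0515 to 0.105). For *Cd96* they left out B, C or D of repeat peptide with ibrutinib or A or C of single peptide with DMSO (adjusted p 0.0548 to 0.0816).

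The deposited tables also give, for each gene and library, the mean length of its transcripts weighted by their estimated abundance. For *Btla* it was 3242 to 3246 bases over the 18 libraries and for *Ctla4* 1824 to 1933 bases, and *Cd96* has 1 transcript. *Lair1* ran from 1177 to 3206 bases, both in repeat peptide libraries with DMSO, where its expected counts were 31 and 50. *Cd200*, with 11 annotated transcripts of 235 to 2347 bases, 2 of them named protein-coding, also varied widely. Its mean length was 1897, 1774, 1659, 584 and 686 bases in single peptide libraries A, B, C, D and F with DMSO, although their counts were alike. It was 572, 420, 819 and 527 bases in single peptide libraries A to D with ibrutinib. The TPM of *Cd200* in single peptide stimulated cells therefore ran from 2.13 to 35.5, while its normalized count ran from 78.7 to 137.

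In repeat peptide stimulated cells the mean length of *Cd200* was 776, 739, 911 and 1100 bases with DMSO in experiments A to D and 605, 733, 669, 702 and 570 bases with ibrutinib in A to E. Every ibrutinib library was below every DMSO library, and the means were 656 ± 67.6 and 882 ± 163 bases (SD, n = 5 and 4). The difference of -226 bases had p = 0.00794 in a two-sided exact permutation test, the smallest p that 126 splits allow, and an adjusted p of 0.0714 over the 27 length comparisons of the members. *Cd101* (a difference of 43.7 bases) and *Vsir* (-342 bases) gave the same p in repeat against single peptide stimulated cells with ibrutinib (exact p = 0.00794, adjusted p = 0.0714 for each). No length comparison passed the correction, and 3 had an unadjusted exact p under 0.05. A shift in the mean length is a shift in the estimated mixture of transcripts. With 69 to 139 expected counts per library in single peptide stimulated cells, that estimate for *Cd200* rests on few reads.

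**Figure D4:**
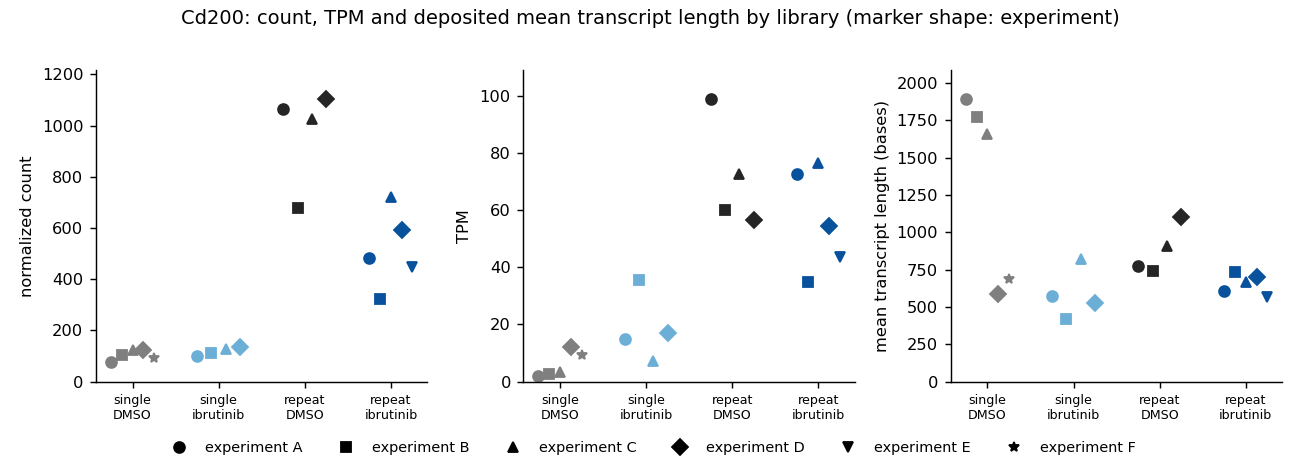
*Cd200* by library and group (x axis): normalized count (left), TPM (middle) and deposited mean transcript length in bases (right), all axes from 0, with a marker shape for each experiment. The 9 single peptide libraries have like counts (78.7 to 137) but lengths of 420 to 1897 bases, and the 5 repeat peptide libraries with ibrutinib (570 to 733 bases) all lie below the 4 with DMSO (739 to 1100 bases).

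Genes that bind or serve the 9 receptors were taken from a list of 28 genes, of which 23 were tested. In repeat against single peptide stimulated cells with DMSO, 12 of the 23 were called, 9 higher and 3 lower, near the 47% of all tested genes. Among those called, *Cd80*, a ligand of CTLA-4 and CD28, rose most (log2 fold change 4.01 ± 0.253, from a mean normalized count of 104 to 1690.0). *Tigit*, which shares CD155 with CD96, rose by 3.92 ± 0.295 and *Icos*, a relative of CD28, by 1.47 ± 0.126. *Cd226*, the activating receptor for the same ligand, fell by 1.96 on the log2 scale (SE 0.291), and *Selplg*, a proposed VISTA partner, by 0.49 (SE 0.107). The HVEM ligands *Tnfsf14* (1.19 ± 0.168) and *Cd160* (1.42 ± 0.188) were higher, whereas *Tnfrsf14* and *Btla* were lower, as given above. The other genes called higher were *Ptpn6* (0.87 ± 0.101), *Cd28* (0.87 ± 0.162), *Pvr* (0.44 ± 0.164) and *Lrba* (0.36 ± 0.112), and *Cd200r4*, given above, was the third called lower. *Pvr* lost its call without A, C or D of repeat peptide or A, B, C or D of single peptide with DMSO (adjusted p 0.058 to 0.102).

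With ibrutinib in repeat peptide stimulated cells, 6 of the 23 were called, 2 higher and 4 lower, against 5.92% of all tested genes. *Cd226* rose from a mean of 399 to 992 (log2 fold change 1.32 ± 0.285, adjusted p = 0.0087). *Dok2*, an adaptor of CD200R1, rose by 0.34 ± 0.0986 (adjusted p = 0.0479), a call lost in 10 of 18 fits that left out a library. These were all 4 libraries of repeat peptide with DMSO, A, B, D or E of repeat peptide with ibrutinib and C or F of single peptide with DMSO (adjusted p 0.0515 to 0.125). *Cd80* was lower (-1.10 ± 0.227, adjusted p = 0.00637), as were *Tigit* (-1.07 ± 0.268, adjusted p = 0.0211) and *Icos* (-0.55 ± 0.125, adjusted p = 0.0117). *Ptpn6*, which encodes SHP-1, was the fourth called lower (-0.48 ± 0.101, adjusted p = 0.00705). *Tigit* lost its call without B or C of repeat peptide with DMSO or A or E with ibrutinib (adjusted p 0.05 to 0.0698).

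In single peptide stimulated cells ibrutinib lowered 4 of the 23, *Tigit*, *Tnfsf14*, *Cd160* and *Ptpn6*, and 0 were called higher, against 3.04% of all tested genes called. *Tigit* fell by 1.66 on the log2 scale (SE 0.312, adjusted p = 0.00703), *Tnfsf14* by 0.97 (SE 0.176, adjusted p = 0.00614) and *Cd160* by 0.77 (SE 0.193, adjusted p = 0.0341), and *Ptpn6* by 0.68 (SE 0.103, adjusted p = 0.00185). *Cd160* lost its call without A, C, D or F with DMSO or A, B or D with ibrutinib of the single peptide libraries (adjusted p 0.052 to 0.144). The difference between the ibrutinib effects was called for 1 of the 23 partners, *Icos* (-0.78 ± 0.178, adjusted p = 0.0358), against 1.26% of all tested genes. In 13 of 18 fits that left out a library, the adjusted p of *Icos* was 0.0504 to 0.102. The 5 fits that kept it left out B of repeat peptide with DMSO, C or D of repeat peptide with ibrutinib, A of single peptide with DMSO or B of single peptide with ibrutinib. When both kinds of cells had ibrutinib, repeat and single peptide differed for 14 of the 23, 12 higher and 2 lower with repeat peptide, against 38.4% of all tested genes. *Tigit* (4.51 ± 0.335), *Cd80* (3.20 ± 0.263) and *Cd86* (2.30 ± 0.454) had the largest rises, and *Cd226* (-1.04 ± 0.271) and *Selplg* (-0.43 ± 0.106) were lower. The mean normalized count of *Cd86* was 50.45, just past the minimum, and its call was lost without C or D of repeat peptide with DMSO or D or E with ibrutinib.

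Against the single peptide DMSO libraries, 10 of 23 were called for repeat peptide with ibrutinib, 10 higher and 0 lower, against 32.9% of all tested genes. *Cd80* (2.92 ± 0.238), *Tigit* (2.85 ± 0.278) and *Cd160* (1.28 ± 0.18) had the largest rises. With the experiment as a block, *Cd226* (-0.78, adjusted p = 0.0461) and *Selplg* (-0.29, adjusted p = 0.0295) were also called, as lower. *Pvr* (0.39, adjusted p = 0.0429) and *Lrba* (0.25, adjusted p = 0.00936) were called with the block as higher. The share of all tested genes called with the block is not given here for this comparison.

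**Figure D5:**
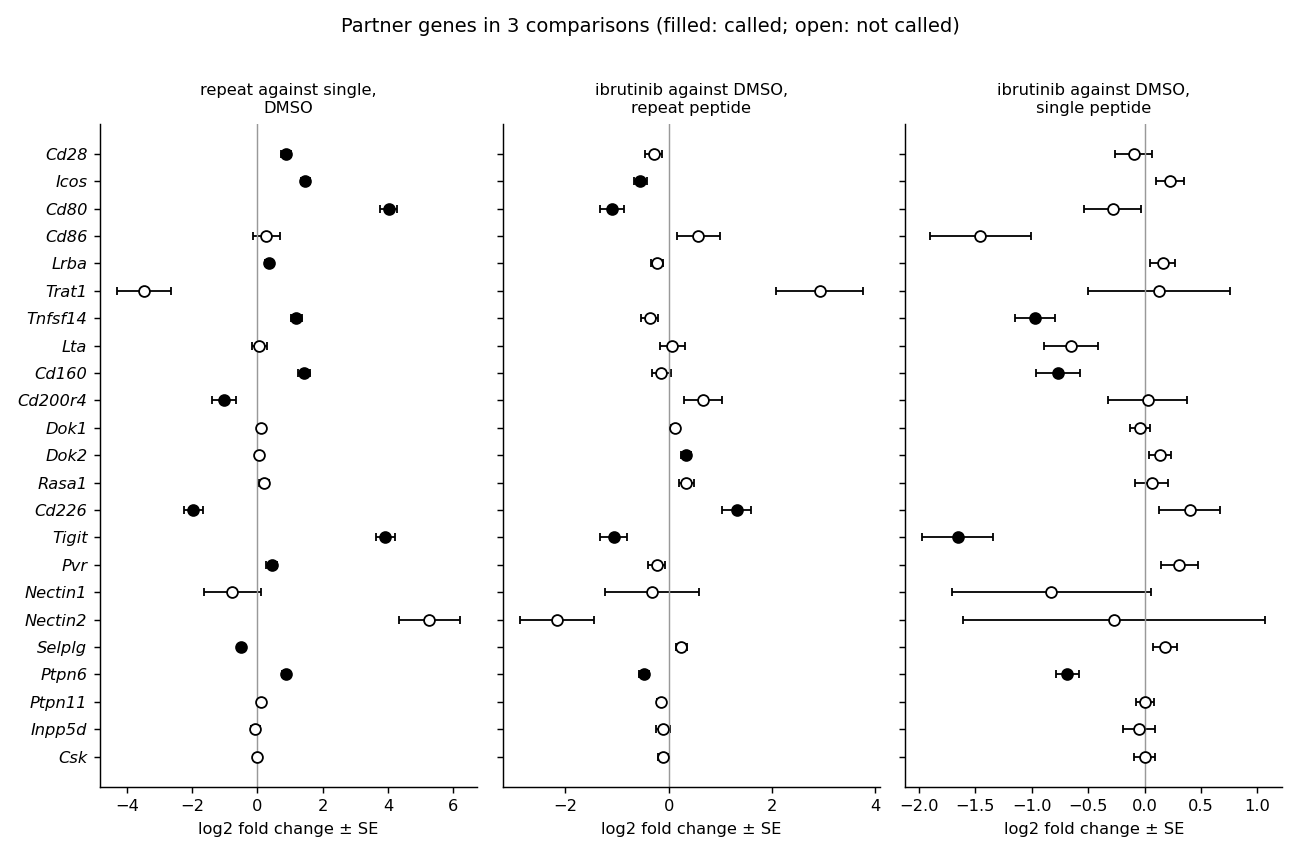
Log2 fold change ± SE (x axis, a scale of its own in each panel) of the 23 tested partner genes in 3 comparisons; filled points were called and open points were not. *Cd80* and *Tigit* are the 2 filled points furthest to the right for repeat against single peptide and the 2 filled points furthest to the left for ibrutinib in repeat peptide stimulated cells, where *Cd226* is the filled point furthest to the right.

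The genes whose log2 CPM followed each member most closely over the 18 libraries were found among all tested genes by Pearson's r, a description of libraries that fall into 4 shared groups. For *Cd200* they were *Tnfrsf11b* (r = 0.989), *Rgs8* and *Pde1a*, and for *Cd101* *Tnfsf11* (r = 0.977), *Lzts1* and *Anxa4*. For *Vsir* they were *Slc25a45* (r = 0.984), *Card6* and *S1pr1*, for *Tnfrsf14* *Sntb1* (r = 0.977), *Nin* and *Ncoa5*, and for *Lair1* *Dtx1* (r = 0.970), *Myl10* and *Acvrl1*. *Ctla4* was most like *Phf10* (r = 0.927), *Ak4* and *Zfp820*, and *Cd200r1* most like *Izumo1r* (r = 0.936), *Mapk3* and *Pld3*. *Btla* (*Soat2*, r = 0.909, *Abcb1a* and *F2rl1*) and *Cd96* (*Cd244a*, r = 0.913, *Mtmr1* and *Chst12*) had the least close neighbours.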

How the data were processed

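Total RNA of 18 cultures of CD8+ T cells was converted to poly(A)-selected directional libraries. The authors deposited a gene table per library, made with RSEM 1.3.1 on GRCm38; the submitters' processing notes also list Trim Galore, SAMtools 1.10, R 4.0.3 and DESeq2 1.30.0. The strand setting is not given in the sources used here. The deposited expected counts are RSEM estimates of reads per gene, the deposited TPM values are scaled by the authors for length and depth, and the deposited lengths are abundance-weighted transcript lengths. FPKM was not used.

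Expected counts were rounded (2925 genes had a fractional count). Of 45706 genes, 45143 matched the GENCODE M21 annotation and 27903 were protein-coding or lncRNA genes, with 98.4574% of counts. After edgeR's low-count filter 12255 were tested. Total expected counts were 23445922 to 51995372 (median 27420966), and gene counts are subject to counting error that is larger for low genes. All 4 groups entered 1 quasi-likelihood fit (edgeR 4.0.16, R 4.3.3, TMM) with Benjamini-Hochberg adjustment over all tested genes. Calls needed an adjusted p under 0.05, an average of 50 or more normalized counts and a log2 fold change beyond 0.2 in either direction. Normalized counts are scaled to the mean effective library size of 29285633. Values within an experiment are differences of log2(normalized count + 1). Mean transcript lengths were compared by exact permutation tests where both groups averaged at least 50 counts. All 9 members were described, and of their partners the count called and up to 3 called genes with the largest rise and 3 with the largest fall per comparison; the other called partners that are named were chosen after their values were seen; likeness was ranked by Pearson's r on log2 CPM (prior count 2), 3 genes per member. The members and gene lists were chosen with earlier results of these data known. The fit was tested on simulated data.

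Libraries of the same experiment deviated together: 24 of 24 pairs across groups correlated above 0.1 (0.16 to 0.494, median 0.325), against 7 of 97 other pairs (median -0.0765). The pairing comes from the shared text of the genotype entry, and the experiment was used as a block in an alternative fit. No 2 libraries of a group were alike within sampling noise (chi-square over its degrees of freedom, 27.31 to 209.38 over 32 pairs). Alternatives were DESeq2 1.42.0 size factors and Wald test, no low-count filter, no count threshold, an effective length offset, all gene types, only the compared groups, limma 3.58.1 on log2(TPM + 1), and leaving out each library.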

Additional observations from a re-analysis of the deposited data

Results flagged for a closer look

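In 3 of 36 groups of a member's normalized counts, 1 library lay far from the others by Dixon's criterion, which chance meets in about 1 in 20 groups. *Ctla4* was 3893 in single peptide library B with DMSO, against 1954 to 2467 in the others. *Btla* was 2747 in single peptide library B with ibrutinib, against 1730 to 1857. *Lair1* was 72.58 in repeat peptide library D with DMSO, against 36.06 to 38.5.

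The ibrutinib effect on *Tnfrsf14* differed between repeat and single peptide stimulated cells by 0.7916 on the log2 scale (edgeR's quasi-likelihood test, adjusted p = 0.0458). This call was lost in 12 of 18 fits that left out a library. It was also lost with the length offset (adjusted p = 0.417) and in the limma test on TPM (adjusted p = 0.9).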

How the results depend on the processing

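Direction and call of single members were unchanged in 925 of 972 values from fits without 1 library and in 448 of 477 values from other alternatives. With limma on TPM, 0 members were called for ibrutinib in repeat peptide stimulated cells, 0 members and 0 partners for the difference of the ibrutinib effects, and 6 partners for repeat peptide with ibrutinib against single peptide with DMSO. For ibrutinib in single peptide stimulated cells 1 member was called by DESeq2, 1 with only the compared groups and 1 with the experiment as replicate block. For the difference, 2 members were called by DESeq2, 3 with the block and 0 with the length offset, and without the low-count filter 0 members and 0 partners. The block gave no member a lost call. Without 1 library, the members called were 3 to 4 (ibrutinib, repeat), 0 to 1 (ibrutinib, single), 9 to 9 (repeat against single, DMSO), 6 to 7 (the same with ibrutinib), 7 to 9 (repeat ibrutinib against single DMSO) and 0 to 2 (difference), and the partners 4 to 6, 3 to 4, 10 to 12, 11 to 14, 9 to 12 and 0 to 1. Values near 0 turned sign without passing the test. *Cd96* in single peptide stimulated cells was 0.005 with the length offset, 0.005 with all gene types, 0.017 with the block and -0.036 to 0.025 without 1 library. *Tnfrsf14* there was 0.086 with the length offset. *Btla* between repeat and single peptide with ibrutinib was 0.087 with limma and -0.125 to 0.099 without 1 library. Without 1 library the difference was -0.667 to 0.059 for *Cd200r1* and -0.172 to 0.027 for *Cd96*, and *Cd96* in repeat peptide stimulated cells was -0.192 to 0.008. Over all genes, ibrutinib in repeat peptide stimulated cells gave 726 calls, against 1118 by DESeq2, 464 with only the compared groups, 1694 with the block and 391 with limma. In single peptide stimulated cells there were 373, against 602, 181, 1114 and 161. The difference gave 154, against 339 by DESeq2, 679 with the block and 77 with limma. Repeat against single peptide with ibrutinib gave 4703 against 2994 with limma, and repeat ibrutinib against single DMSO 4028 against 2493. Without 1 library, the count for ibrutinib in repeat peptide stimulated cells was 393 or 354 (without C or D with DMSO) or 478 (without A with ibrutinib). In single peptide stimulated cells the count was, among other values, 198 or 239 (without C or D with DMSO) or 131, 205 or 152 (without A, B or D with ibrutinib). For the difference it was, among other values, 84 (without repeat DMSO C) or 89 (without single ibrutinib D). The causes were not tested. Counts of *Cd200r1* in single peptide stimulated cells and of *Lair1* in repeat peptide stimulated cells were low, which limits their precision.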
